A study of Mus musculus with 12 samples.

Results

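The clustered protocadherin genes of the mouse are Pcdha, Pcdhb and Pcdhg, lying one after another on chromosome 18. Members were all RefSeq genes there whose symbol is one of these stems followed by a number, a letter and a number, or c and a number. This gave 58 genes, with 14 in the alpha, 22 in the beta and 22 in the gamma family. CTCF sites were taken from 36.9 to 38 Mb of chromosome 18 (mm10), an interval that holds all of these genes and a flank downstream of the gamma genes. It held 67 distinct sites of the 76061 found genome-wide. Binding of CTCF, a DNA-binding protein that anchors chromatin loops, was measured by ChIP-seq, in which chromatin bound by the protein is pulled down and sequenced. The tissue was whole liver of wild-type male C57BL6/Ncrl mice, 3 to 4 months old and on normal chow. The fed mice ate ad libitum and were sampled at ZT16 (zeitgeber time, hours after lights on). The starved mice went 24 h without food and were sampled at ZT13. Each state had 3 ChIP libraries. All libraries of a state shared its collection time, so feeding and collection time cannot be told apart.

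Clustered protocadherins are cell surface adhesion proteins, known mainly from neurons, where each cell expresses its own combination of them, chosen largely at random. Each variable exon has its own promoter. In the alpha and gamma families the variable exons are spliced to constant exons shared by the family, while beta genes are single-exon genes. CTCF and cohesin are known to loop the chosen promoters to distal enhancers, and most promoters carry a conserved element with a CTCF site. Pcdhac2, Pcdhb1, Pcdhgc4 and Pcdhgc5 are known to lack that element. The C-type genes, at the end of the alpha and gamma families, are known to be expressed largely without this random choice.

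Each library came as its own list of called peaks, from 49030 to 74950 peaks in the fed and from 23926 to 30752 in the starved libraries. The number of reads behind a list is unknown. A site is a set of peaks from any of the 6 lists that overlap by at least 1 bp, and it counts for each library with a peak in it. A fed site is called in all 3 fed libraries, and it is fed-only where no starved list has a peak in it. The rank of a site is the percentile of its score within its own list, where 100 is the best peak. The scores are the authors' own, and ranks from lists of different lengths describe position in a list and do not measure a change. Peak lists from whole liver do not show which cells were bound, so fewer cells with CTCF at a site and less CTCF per cell cannot be told apart. The lists carry no expression values, and the tissue label was not checked here.

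Fewer sites of the protocadherin interval were called in every starved library than in any fed library. Fed 1, fed 2 and fed 3 held 43, 42 and 65 sites, and starved 1, starved 2 and starved 3 held 22, 14 and 21. The means were 50 ± 13 and 19 ± 4.36 (SD, n = 3 each), a difference of −31 sites with an exact permutation p of 0.1, two-sided over 20 labellings. This is the smallest p that 3 libraries against 3 allow. No site had a peak in a starved library without peaks in all 3 fed libraries. Genome-wide, each fed list shared from 98.4 to 99.99% of each starved list, so this is near what the whole lists show. Whether each library is from its own mouse is not said, so the p-values reflect only how these libraries vary, possibly for technical reasons.

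Set against the length of the same list, the interval took a smaller share in each starved library than in any fed library. Of every 10000 peaks, 7.84, 8.57 and 8.81 lay in the interval in fed 1, fed 2 and fed 3, and 7.15, 5.85 and 7.03 in starved 1, starved 2 and starved 3. The groups did not overlap, and the difference was −1.73 peaks (exact permutation p = 0.1). With only the 23926 best-scored peaks of each list, the length of the shortest list, the groups did overlap. The fed libraries then had 19, 19 and 17 sites and the starved libraries 18, 14 and 18, a difference of −1.67 sites (exact permutation p = 0.5). The median rank of the interval's peaks was 45.2 ± 1.93 in fed and 45.4 ± 6.67 in starved lists (SD, n = 3 each), with an exact permutation p of 1. Over the 6 library-level comparisons, the lowest Benjamini-Hochberg adjusted p of the exact permutation tests was 0.12.

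**Figure D1:**
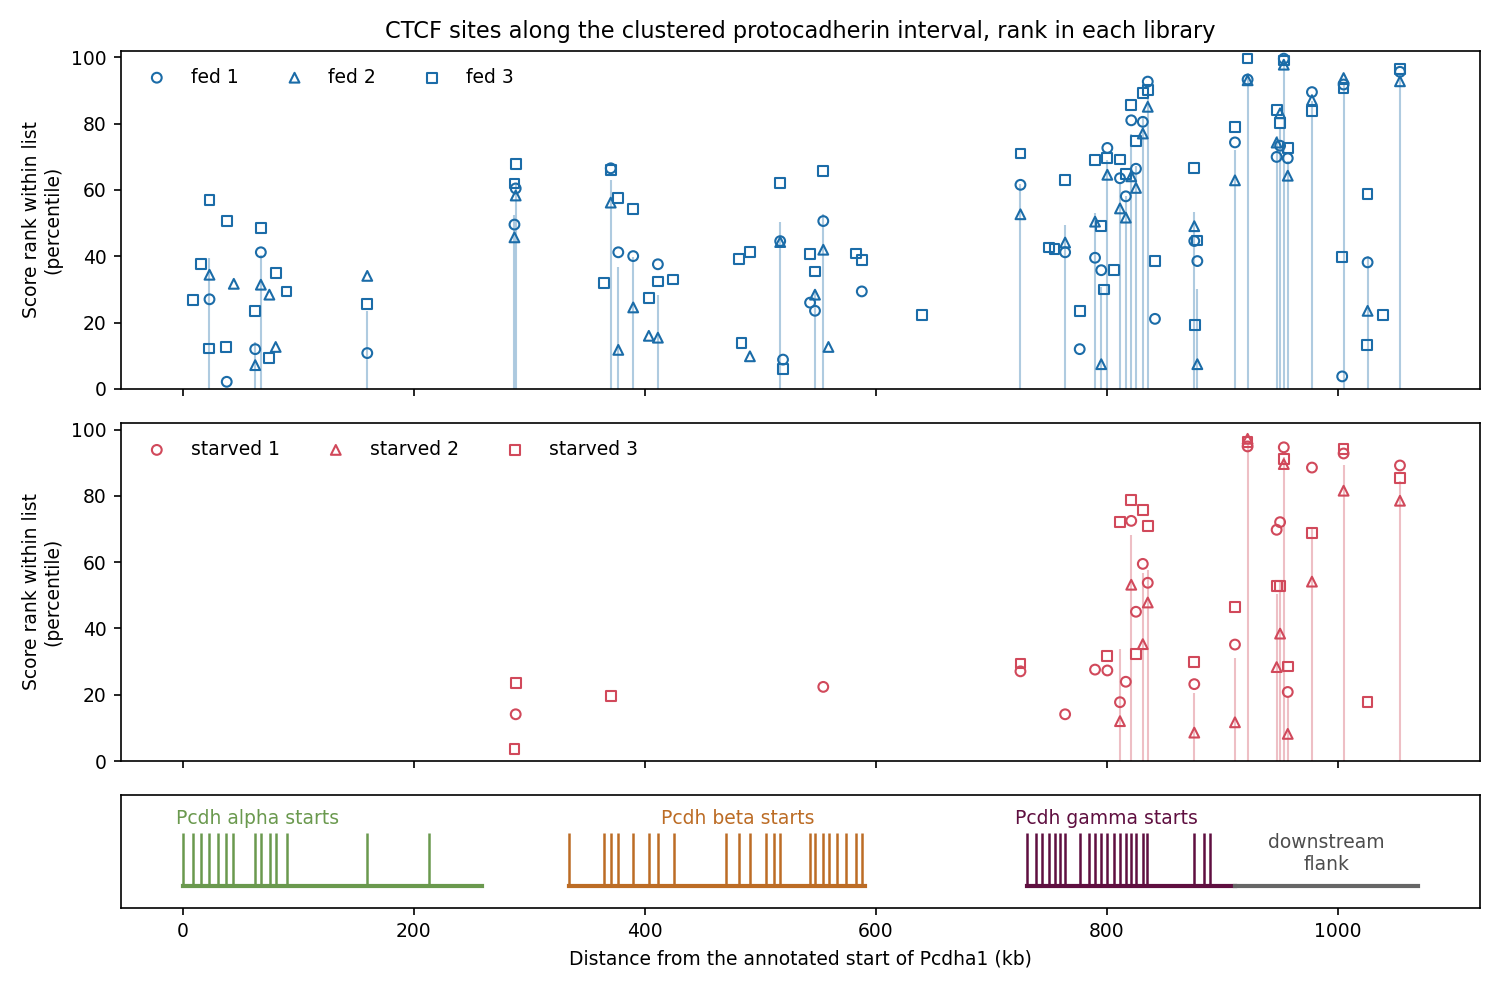
Score rank within the list (percentile, vertical axis) of each CTCF site against its distance from the annotated start of Pcdha1 (kb), for the 3 fed libraries (top) and the 3 starved libraries (middle), with gene starts below. Points are libraries and vertical lines reach the mean rank where all 3 libraries of the state held the site; starved points are absent over the alpha genes and dense from the end of the gamma genes into the downstream flank.

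The counts by stretch ran from the alpha genes, with the fewest starved peaks, to the downstream flank. Over the alpha genes, fed libraries held 5, 7 and 12 sites and the starved libraries held 0, 0 and 0. Over the beta genes, the fed libraries held 10, 10 and 17 sites and the starved libraries 1, 0 and 1. Over the gamma genes, the fed libraries held 15, 13 and 20 sites and the starved libraries 11, 6 and 8. In the flank downstream of the gamma genes, the fed libraries held 10, 9 and 12 sites and the starved libraries 8, 8 and 9. Alpha, beta and gamma counts did not overlap between states, while the downstream counts met at 9. Site counts of the whole series did not overlap either, at 54600, 47437 and 74162 in fed and 29695, 23201 and 28727 in starved libraries. With lists of equal length, every library held 0 alpha sites. Beta counts were then 1, 1 and 0 in fed and 1, 0 and 0 in starved libraries. Gamma counts were 8, 8 and 8 in fed and 9, 6 and 8 in starved libraries.

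The share of a library's interval sites that lay in the gamma and downstream stretches was 53.3 ± 4.52% in fed and 89.1 ± 9.82% in starved livers (SD, n = 3 each). By library it was 58.1, 52.4 and 49.2% in fed 1, fed 2 and fed 3, and 86.4, 100 and 81.0% in starved 1, starved 2 and starved 3. The groups did not overlap (exact permutation p = 0.1). This share was added after the values were seen. With lists of equal length it was 87.5% and 92.6% (exact permutation p = 0.5).

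**Figure D2:**
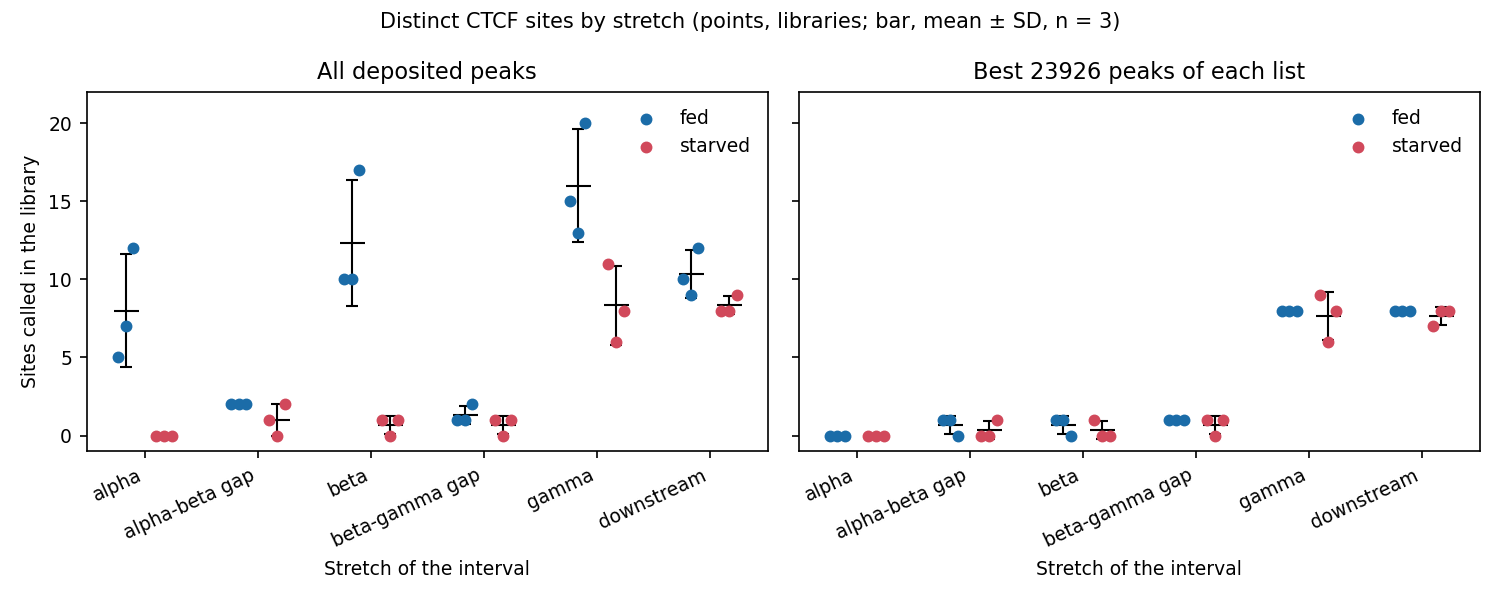
Number of distinct sites called in each library (vertical axis) in 6 stretches of the interval, with all deposited peaks (left) and with the 23926 best-scored peaks of each list (right). Points are libraries and bars are mean ± SD (n = 3); over the alpha genes the fed libraries held 5 to 12 sites and the starved libraries 0 with all peaks, and every library held 0 with lists of equal length.

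Of the 67 sites, 36 were fed sites, or 53.7% against 59% of all sites genome-wide. Of these, 11 (30.6%, exact binomial 95% interval 16.3 to 48.1) had no starved peak, against 29.1% of fed sites genome-wide, so the fed-only share was near that of the genome. At the other 25 (69.4%) some starved list held a peak, against 70.9% genome-wide. In all 3 starved libraries 14 of the 36 (38.9%) were called, against 49.3% genome-wide. The binomial interval takes the 36 sites as independent, though they share the same 6 lists. It thus covers counting error alone and not how libraries vary. The stretches differed in these counts: fed-only were 4 of 4 fed sites over the alpha genes, 5 of 7 over the beta genes, 2 of 13 over the gamma genes and 0 of 9 downstream. Over these stretches the mean fed rank followed the same order. Its median over fed sites was 31.5 for alpha, 39.6 for beta, 62.4 for gamma and 86.8 downstream, against 61.0 genome-wide. The gaps between the families did not keep to a steady order along the chromosome. The alpha-beta gap had 0 of 2 fed sites fed-only, at a median of 57.3, and the beta-gamma gap 0 of 1, at 61.7. Fed-only sites had mean fed ranks from 14.2 to 50.3, and sites called in all 6 libraries from 53.4 to 98.8. Their medians of 30.8 and 80.6 were near those of the genome, 33.4 and 81.1. The fed-only count rests on the libraries used: without fed 2, the shortest fed list, it was 18. With lists of equal length it was 0, where 1.2% of fed sites genome-wide were fed-only. Of the 16 fed sites left at equal length, 11 (68.8%) were called in all 3 starved libraries, against 88.9% genome-wide.

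At the gene starts, a peak within 1 kb was found at 26, 28 and 40 of the 58 genes in fed 1, fed 2 and fed 3, and at 11, 5 and 8 in starved 1, starved 2 and starved 3. The means were 31.3 ± 7.57 and 8.0 ± 3.0 (SD, n = 3 each), without overlap (exact permutation p = 0.1). In percent, this was 44.8, 48.3 and 69.0% of the protocadherin starts in the fed and 18.97, 8.62 and 13.8% in the starved libraries. Over 17550 gene starts of the genome, which hold no other genes of chromosome 18, it was 34.9, 32.0 and 47.0%, and 20.3, 11.8 and 17.5%. The protocadherin share thus lay above that of all gene starts in each fed library and below it in each starved library. These positions changed with the setting. Within 500 bp the starved mean log2 ratio was 0.01, and with either annotated end it was 0.90. The fed mean was 0.01 with lists of equal length and −0.67 with 50% of the shortest list. On a log2 scale the ratio of the shares, within 1 kb, was 0.50 ± 0.12 in fed and −0.30 ± 0.19 in starved livers (SD, n = 3 each), a difference of −0.80 (exact permutation p = 0.1). With lists of equal length the difference was −0.13 (exact permutation p = 0.7), and 7.67 fed and 7 starved starts had a peak on average. With either annotated end of a gene in place of its start it had the opposite sign, 0.21 (exact permutation p = 0.3). The gamma genes end within a few bases of each other, except Pcdhgb8, and a site called in all 6 libraries lies just before that end.

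In at least 1 fed library 42 of the 58 starts (72.4%) had a peak, against 47.5% of all gene starts. Counting any of the 6 libraries, it was the same 42 against 47.6%. In all 3 fed libraries it was 22 (37.9%, against 29.8%), in at least 1 starved library 12 (20.7%, against 22.1%) and in all 3 starved libraries 5 (8.62%, against 11.4%). Of the 22 starts with a peak in all 3 fed libraries, 10 (45.5%) had none after starvation, against 28.9% of such starts genome-wide. As a share of all 58 starts the 10 were 17.2%, against 8.62% genome-wide. The 10 were 4 in alpha, 5 in beta and 1 in gamma. The longest list, fed 3, was the only library with a peak at 10 of the 58 starts, and it alone held 18 of the 67 sites (26.9%, against 24.7% of all sites). The share of all gene starts with a peak in fed 3 alone was not counted.

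**Figure D3:**
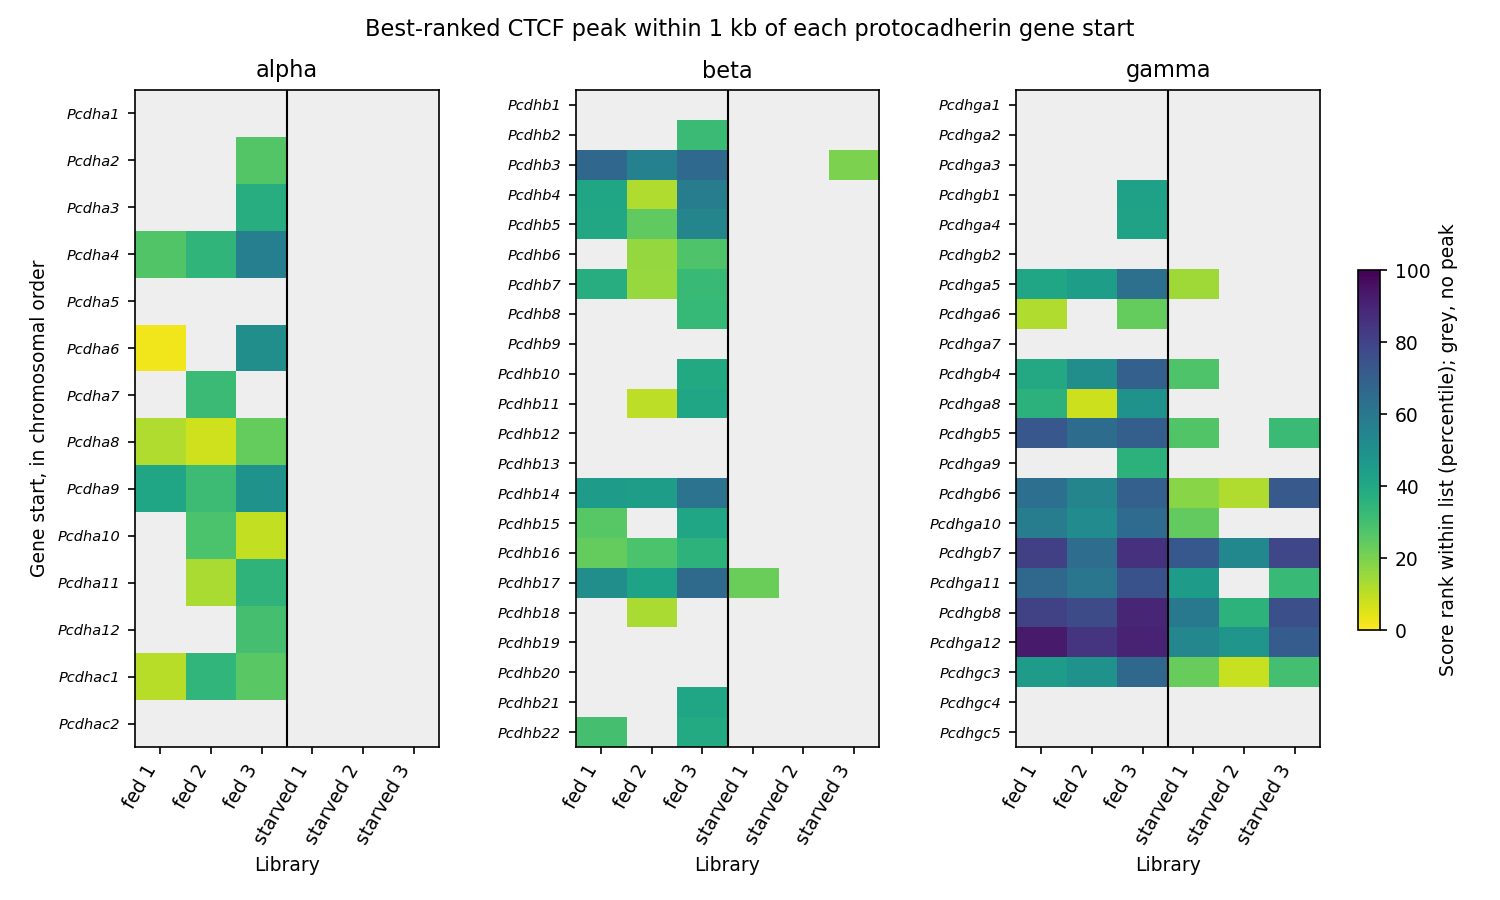
Best-ranked CTCF peak within 1 kb of each of the 58 protocadherin gene starts (rows, in chromosomal order) in the 6 libraries (columns), coloured by score rank within the list (percentile), grey where no peak was called. The starved columns hold 0 alpha starts, 2 beta starts (Pcdhb3 and Pcdhb17) and 10 gamma starts.

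The 4 genes known to lack the conserved element, Pcdhac2, Pcdhb1, Pcdhgc4 and Pcdhgc5, had 0 peaks within 1 kb of their starts in all 6 libraries. The other members had a peak in at least 1 library at 42 of 54 starts. This grouping comes from textbook knowledge and was made after the values were seen. The 12 others without a peak were spread over the families: Pcdha1 and Pcdha5; Pcdhb9, Pcdhb12, Pcdhb13, Pcdhb19 and Pcdhb20; and Pcdhga1, Pcdhga2, Pcdhga3, Pcdhga7 and Pcdhgb2. Of the 5 C-type genes, Pcdhac1 had a peak in the 3 fed libraries alone and Pcdhgc3 in all 6 libraries.

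Most sites at gene starts covered the start, and most midpoints lay just upstream of it. Of 45 sites within 1 kb of a member's start, 34 covered the start itself, and 36 had their midpoint before it, with a median of −67.5 bp over all 45. In the beta family 15 of 16 such sites covered the start, with midpoints from −112.5 to 27 bp. The alpha family had a second position. Of its 13 sites, 9 had midpoints from −220 to −49 bp and 4 had midpoints from 444 to 616.5 bp beyond the start, at Pcdha4, Pcdha6, Pcdha7 and Pcdha8. Alpha promoters are known to have a second CTCF site inside the variable exon. Pcdha4, Pcdha6 and Pcdhgc3 each had 2 separate sites within 1 kb. Midpoints of merged peaks stand in for summits. At Pcdha4, Pcdha6 and Pcdha7, RefSeq genes that run from alpha into gamma (Gm37013, Gm38666 and Gm38667) start within 100 bp of the member, so the sites there belong to both.

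**Figure D4:**
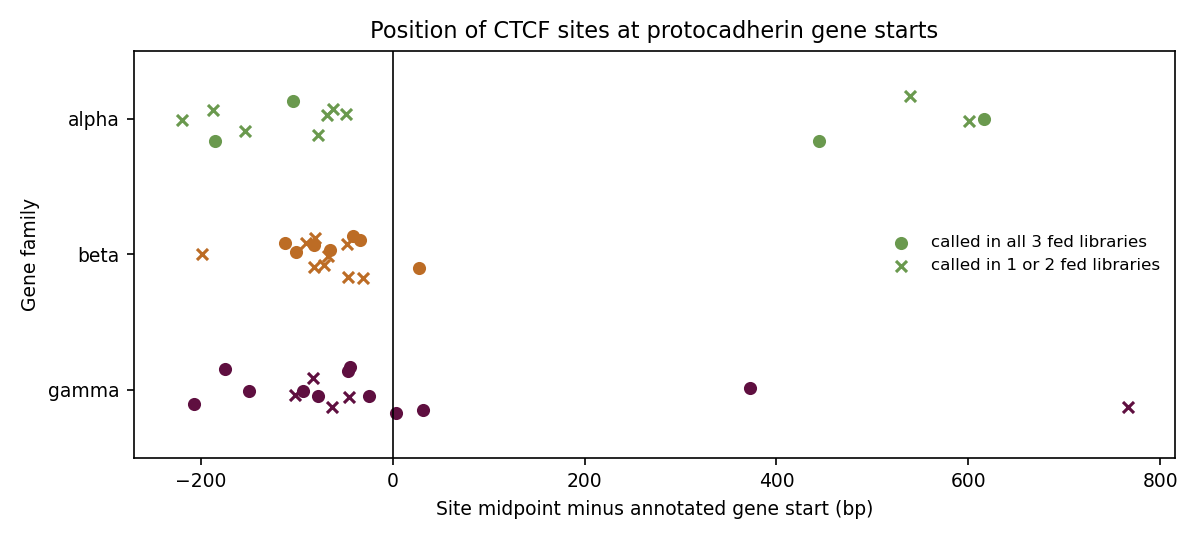
Midpoint of each CTCF site within 1 kb of a protocadherin gene start, minus the annotated start (bp, horizontal axis), by gene family; circles are sites called in all 3 fed libraries and crosses sites called in 1 or 2. Of the 45 midpoints, 36 lie left of the start, and the 4 alpha midpoints at 444 to 616.5 bp stand apart.

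The alpha sites were narrow, as were the beta sites, and low in the fed lists. Of 13 sites, 4 were fed sites, and all 4 were fed-only. The site at Pcdha9 (36997632 to 36997920) covered the start and had ranks of 41.2, 31.4 and 48.5 in fed 1, fed 2 and fed 3. The site in Pcdha4 (36953096 to 36953515) began 407 bp beyond the start, with ranks of 27.0, 34.4 and 57.0. The site before Pcdhac1 (37089824 to 37090078) had ranks of 10.8, 34.1 and 25.5. The fed-only site of Pcdha8 (36992815 to 36993007) ranked at 12.0, 7.15 and 23.6. Fed 3 had the best rank at 3 of these 4, and fed 2 at Pcdhac1. The other 9 alpha sites were called in 1 or 2 fed libraries, 5 of them in fed 3 alone. The median width over the 13 sites was 221 bp, against 220 bp for the beta, 395 bp for the gamma and 792 bp for the downstream sites.

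Between Pcdhac1 and the beta genes lay the longest run of the interval without a site, 127 kb, which spans Pcdhac2 and the alpha constant exons. It ended at a pair of sites in the gap between the families, 37217197 to 37217658 and 37218246 to 37218766. A distal alpha enhancer with CTCF sites is known to lie beyond the alpha constant exons. Its coordinates were not used here, so the pair was not matched to it. The first site had ranks of 49.6, 45.7 and 62.0 in fed 1, fed 2 and fed 3 and of 3.58 in starved 3. The second had 60.5, 58.3 and 67.8 in the fed libraries, 14.1 in starved 1 and 23.5 in starved 3. Both were thus fed sites with a mean fed rank above every alpha site, and neither was called in starved 2.

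Over the beta genes, 7 of 18 sites were fed sites, each over a gene start. Pcdhb3 had the best of them (37300537 to 37301115), with ranks of 66.5, 56.2 and 66.0 in fed 1, fed 2 and fed 3 and of 19.6 in starved 3. Pcdhb17 (37484752 to 37485065) had ranks of 50.6, 42.0 and 65.6 in the fed libraries and of 22.4 in starved 1. Pcdhb17 was called in starved 1 alone with lists of equal length, at a rank of 0.23, near the bottom of that list. Pcdhb14 (37447442 to 37447741) had ranks of 44.6, 44.3 and 62.0, the highest mean fed rank of any fed-only site in the interval. These 3 sites ranked best in the beta stretch, and each was called in at most 1 starved library. The other fed-only beta sites lay at Pcdhb4 (37307209 to 37307537), Pcdhb5 (37320084 to 37320476), Pcdhb7 (37341531 to 37341791) and Pcdhb16 (37477625 to 37477842). Their mean fed ranks were 36.8, 39.6, 28.5 and 29.1. The fed sites included the neighbours Pcdhb3, Pcdhb4 and Pcdhb5 but did not gather at 1 end of the family. Across the 22 genes in order, the number of libraries with a peak had a Spearman correlation of −0.15 with position, a description across genes that share the same 6 libraries. One site in the gap before the gamma genes (37655372 to 37655986) was called in all 3 fed libraries, starved 1 and starved 3.

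Among the A-type and B-type gamma genes, peaks were more frequent towards the end of the family. Of the first 10 gamma genes, 2 (20%) had a peak at the start in all 3 fed libraries and 0 in all 3 starved libraries. Of the next 9, from Pcdhga8 to Pcdhga12, it was 8 (88.9%) and 4 (44.4%). Of all gene starts it was 29.8% and 11.4%. Across these 19 A-type and B-type genes the number of libraries with a peak had a Spearman correlation of 0.85 with gene order, again a description across genes of the same 6 libraries. Over all 22 gamma genes, with the 3 C-type genes at the end, it was 0.50. The split after the tenth gene was made after the values were seen. By type, 5 of 12 A-type (41.7%) and 5 of 7 B-type (71.4%) starts had a peak in all 3 fed libraries. In all 3 starved libraries it was 1 (8.33%) and 3 (42.9%). Type and order were not told apart, since most of the first 10 genes were A-type.

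The best gamma sites covered the starts of the last A-type and B-type genes. Pcdhga12 (37765529 to 37766375) had ranks of 92.7, 85.1 and 90.1 in fed 1, fed 2 and fed 3 and of 53.8, 47.8 and 71.0 in starved 1, starved 2 and starved 3. The site at Pcdhgb8 (37761218 to 37762084), a transcribed pseudogene, had 80.6, 77.0 and 89.2 in the fed and 59.5, 35.3 and 75.8 in the starved libraries. Pcdhgb7 (37751371 to 37751930) had 81.0, 64.1 and 85.6 in the fed and 72.5, 53.2 and 78.7 in the starved libraries. All 3 sites were called in all 6 libraries, and at each of them starved 2, the shortest list, had the lowest rank.

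With lists of equal length these 3 sites were again called in all 6. There the mean rank was 73.7 in fed and 50.7 in starved lists at Pcdhga12, 57.8 and 51.0 at Pcdhgb8, and 45.6 and 63.7 at Pcdhgb7. The fed mean was thus the higher at Pcdhga12 and the lower at Pcdhgb7. These differences were not tested.

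Another 3 gamma sites were called in all 6 libraries. Pcdhgb6 (37741633 to 37742140) had mean ranks of 62.4 in fed and 33.9 in starved lists, where starved 3 ranked it at 72.1 and starved 1 and starved 2 at 17.8 and 12.0. Pcdhgc3 (37805866 to 37806605) had 53.4 and 20.5, and the site just before the shared gamma end (37841132 to 37841812) had 72.1 and 31.1. At Pcdhgb6 with lists of equal length, mean ranks were 8.21 over 3 fed and 38.6 over 2 starved libraries. The fed ranks were 14.5, 6.61 and 3.52. Starved 2 ranked it at 12.0 and starved 3 at 65.1, while starved 1 did not hold it. Only the starved 3 rank lay above all fed ranks. With lists of equal length the site at Pcdhgc3 was called in all 3 starved libraries, at a mean rank of 7.40, and in 0 fed libraries. The fed-only gamma sites lay at Pcdhga8 (37725528 to 37725790) and 2270 bp beyond the start of Pcdhgc3 (37808680 to 37809099), at mean fed ranks of 30.8 and 30.3. Pcdhga5, Pcdhgb4, Pcdhgb5, Pcdhga10 and Pcdhga11 had fed sites that were called in 1 or 2 starved libraries.

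Downstream of the gamma genes most sites were broad, and 5 of them had mean ranks of at least 70.5 in both states. Enhancers of the beta and gamma genes are known to lie downstream of the gamma genes. The nearest gene there is Diaph1, which encodes an actin-nucleating formin. Of the 12 sites, 9 were fed sites, and 8 were called in all 6 libraries. These 8 were 685 to 1333 bp wide, with mean ranks of 68.9 to 98.8 in fed and 19.2 to 96.1 in starved lists. The other 4 were 177 to 424 bp wide, with mean fed ranks of 13.2 to 40.1, and 3 of them had no starved peak. Counted from the last gamma gene end, the 8 lay between 9.97 and 142 kb away. Of these, 7 were over Diaph1 and 1 over Arap3, a GTPase-activating protein.

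The best downstream site (37883244 to 37884283) had ranks of 99.6, 97.8 and 99.0 in fed 1, fed 2 and fed 3 and of 94.6, 89.6 and 91.1 in starved 1, starved 2 and starved 3. The site nearest to the gamma genes (37851847 to 37853008) had 93.3, 93.1 and 99.7 in the fed and 94.9, 97.2 and 96.3 in the starved libraries. The site in Arap3 (37983788 to 37984980) had 95.6, 92.8 and 96.4 in the fed and 89.2, 78.5 and 85.3 in the starved libraries. These 3 were the best-ranked sites of the whole interval by mean fed rank, and all lay outside the protocadherin genes. With lists of equal length their mean ranks were 97.2 and 90.5, 89.7 and 95.3, and 87.9 and 82.1 in fed and starved lists.

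The other downstream sites in all 6 libraries were 37877184 to 37877932, 37880137 to 37880971, 37886749 to 37887636, 37907804 to 37908488 and 37934907 to 37936239. The site at 37886749 was the weakest of the 8, with a mean rank of 68.9 in fed and 19.2 in starved lists, and with lists of equal length it was called in all 3 fed and 2 starved libraries. A ninth fed site, over Rell2 (37956143 to 37956566), was called in starved 3 alone among the starved libraries. Beyond the protocadherins the interval also holds Slc25a2, Taf7, Hdac3 and Fchsd1.

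A pair of gene lists gives the surroundings of the family, counted at either annotated end within 1 kb. Of 16 genes that act on protocadherin promoter choice or chromatin, 13 had a peak in at least 1 library, against 52.7% of protein-coding genes, and 5 in all 6, against 15.9%. The 5 were Ctcf itself, the cohesin subunits Smc3 and Stag2, and the cohesin regulators Pds5a and Pds5b. Other cohesin genes of the list went the other way. Rad21, Stag1 and Nipbl had no peak in any library. Smc1a had a peak in the 3 fed libraries alone, and Mau2 and Wapl in fed 3 alone. Of 12 non-clustered protocadherins, 4 had a peak in at least 1 library and 1 in all 6. That gene was Pcdh1, with ranks from 92.4 to 98.0 in fed and from 93.3 to 96.9 in starved libraries. It also lies on chromosome 18, outside the interval.

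As other gene clusters, the Hox clusters and the olfactory receptor genes of chromosome 2 were counted with 5 kb on each side, of each cluster for Hox and of each gene for the receptors. The Hox clusters had 29 fed sites, 6 (20.7%) of them fed-only and 19 (65.5%) called in all 3 starved libraries, at a median fed rank of 75.8. The olfactory receptor genes had 3 fed sites for 287 genes. The protocadherin genes with 5 kb on each side, a span without the downstream sites, had 27 fed sites. Of these, 11 (40.7%) were fed-only and 6 (22.2%) called in all 3 starved libraries, at a median fed rank of 52.7. These differences between clusters were not tested.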

How the data were processed

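The authors deposited a peak list per ChIP library (3 fed, 3 starved), with a score for each peak. What the deposited score measures was not stated in the labels, so it served only to order peaks within a list. The submitters' processing notes name the build mm10 and, without saying what each did, the tools MACS2, HOMER, bedtools 2.17, BWA 0.7.5a, SAMtools and FastQC. The 3 fed and 3 starved input libraries, and promoter sequences of chromosome 18, were not used here. Groups and replicate numbers came from the sample titles.

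Positions are 1-based. Genes were placed by RefSeq (GRCm38.p6, the build mm10), where all 58 members matched by symbol. Members lie on the plus strand, as known for these genes, so the lower end was their start. Other starts were taken where a strand was given, which left out 4351 genes, among them all others on chromosome 18. The score limit named below was 30.4, the median over all lists. Tests were exact permutations over all 20 labellings, two-sided, with a threshold of 0.05, which 3 libraries against 3 cannot reach.

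Named were sites called in all 6 libraries, fed-only sites and the 3 best-ranked fed sites of the alpha, beta, gamma and downstream stretches. The members, lists and tests were chosen with earlier results of these data known. Alternatives were a score limit, lists of equal length, other merging, windows and interval, leaving out each library and a replicate block. Site building was tested on simulated data. Versions were Python 3.11.15, scipy 1.17.1, numpy 2.4.6, matplotlib 3.10.9 and pandas 2.3.3.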

Additional observations from a re-analysis of the deposited data

How the results depend on the processing

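The number of sites in the interval, their share of the list, the number of gene starts with a peak and the share in the gamma and downstream stretches kept their direction under every alternative run, except that the last was 0 with 50% of the shortest list, where both states were at 100%. At that list length the other differences all but vanished: −0.33 sites (exact p = 1), −0.28 peaks per 10000 (exact p = 1) and −0.67 starts (exact p = 0.8). Fed-only sites numbered 22 when at least 2 of 3 libraries were asked for, 0 with lists of equal length and 0 with 50% of the shortest list, against 11. Leaving out 1 library gave 11 to 18, the 18 without fed 2. Sites called in all 6 libraries, and fed sites called in all 3 starved, numbered 4 with 50% of the shortest list, 4 at the stricter score limit and 6 for the genes with 5 kb on each side, against 14; this last interval leaves out most of the flank. Leaving out 1 library gave 14 to 18. The starved minus fed difference in median rank was 0.14 and had no stable sign: it was 20.5 at the stricter score limit, 8.15 and 5.37 with lists of equal length and 50% of it, −13.8 for the genes with 5 kb on each side and −3.61 to 2.78 when 1 library was left out, with −0.18 without fed 1, −0.62 without fed 3 and −3.61 without starved 3. The relative share of gene starts was 0.21 with either annotated end, and gave no value at the stricter score limit, where a list held no member start. Same-numbered libraries deviated from their group means with correlations of −0.01, 0.09 and 0.06 over 22131 sites, so the numbers were not taken as pairs. With the replicate block the exact p was 0.25 in place of 0.1 (8 labellings, the smallest possible), with the same differences: −31 sites, −1.73 peaks per 10000, −23.3 starts, −0.80 log2 and 35.9 points. Depth is unknown, so a missing peak does not show that CTCF was absent.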
